A study of Mus musculus with 4 samples.

Results

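The TOX, NR4A and NFAT genes studied here are 8 transcription factor genes chosen by name, out of 36464 gene IDs measured in each library: Tox, Tox2, Tox4, Nr4a1, Nr4a2, Nr4a3, Nfatc1 and Nfatc2. All 8 symbols matched a single Ensembl ID, and all 8 passed the filter of at least 1 RPKM in at least 2 libraries. RPKM scales reads to the length of the exons and to the size of the library, so levels can be set side by side between genes. RNA came from CD8+ T cells enriched from percutaneous tumour grafts in wild type male C57BL/6 mice. One treatment was an antibody against SIGLEC15, a sialic acid-binding lectin studied as an immune checkpoint molecule, and the other was control IgG. Both were injected intraperitoneally for 2 weeks into 6 mice each, and grafts were taken on day 19. Every library mixed the cells of 3 samples, which left 2 libraries per treatment, so the spread described below is between pools and not between mice. The sources used here give neither the age of the mice nor the line of the grafted tumour. By its title, the study is about the function of tumour CD8+ T cells under SIGLEC15 blockade.

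When the T cell receptor is engaged, calcium activates the phosphatase calcineurin, which sends NFAT proteins into the nucleus. Together with AP-1 proteins, NFAT turns on effector genes, and without enough AP-1 it favours a programme of inhibitory receptors known as exhaustion. In mouse T cells the NR4A nuclear receptors and the HMG-box proteins TOX and TOX2 act in that programme, and TOX is required for exhausted CD8+ T cells to persist in chronic infection and tumours. NR4A genes are also immediate early genes, transcribed soon after stimulation through cAMP response elements.

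The promoters of the NR4A genes are shown because the family shares 1 short element there while its members differed between libraries. RefSeq (GRCm38.p6) promoter sequences were at hand for 6 of the 8 genes, and the 250 bases before each start site were searched on both strands for TGACG, the short form of the cAMP response element. Printed 5′ to 3′ on the strand of the gene, with TGACG or its reverse complement CGTCA in capitals, the windows of Nr4a1 (chr15:101266596-101266845, plus strand), Nr4a2 (chr2:57124004-57124253, minus strand) and Nr4a3 (chr4:48045055-48045152, plus strand) read as follows.
Nr4a1: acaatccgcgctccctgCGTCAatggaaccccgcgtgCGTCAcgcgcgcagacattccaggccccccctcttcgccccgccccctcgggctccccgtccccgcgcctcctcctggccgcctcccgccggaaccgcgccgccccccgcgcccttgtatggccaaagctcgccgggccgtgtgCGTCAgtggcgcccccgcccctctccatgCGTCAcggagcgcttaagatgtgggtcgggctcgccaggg
Nr4a2: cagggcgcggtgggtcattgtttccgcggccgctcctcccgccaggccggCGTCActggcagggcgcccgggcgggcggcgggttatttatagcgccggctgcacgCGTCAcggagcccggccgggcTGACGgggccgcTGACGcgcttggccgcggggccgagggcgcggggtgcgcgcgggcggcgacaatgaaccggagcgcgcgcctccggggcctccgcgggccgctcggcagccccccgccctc
Nr4a3: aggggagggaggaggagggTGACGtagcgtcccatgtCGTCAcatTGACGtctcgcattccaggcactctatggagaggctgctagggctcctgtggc

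The full window of Nr4a3 runs to 48045304, but its last 152 bases lie in an exon annotated by GENCODE as 5′ untranslated and are not printed. Each of the 3 full windows held 4 short sites, of which 3 are in the printed stretch of Nr4a3. Among 32851 promoter windows of the same length, 17.8% held at least 1 short site and 0.137%, or 45 windows, held at least 4. All 250 bases of the Nr4a1 window lie within the GENCODE span of that gene, outside its exons, and none of the Nr4a2 window lies within its gene. In Nr4a1 the sites lay between 233 and 35 bases before the start, in Nr4a2 between 200 and 106 bases, and in Nr4a3 between 231 and 142 bases. All 4 sites of Nr4a1 read TGCGTCA, while 3 of the 4 sites of Nr4a3 read TGACGT. The full element TGACGTCA, which holds the short one on both strands and was present in 1.55% of windows, was in none of the 3. The single Tox4 window held 1 short site, 1 of the 5 Tox2 windows held 1, and neither Nfatc2 window held any. Other elements searched were the AP-1 element TGANTCA (6.75% of windows), the NFAT core GGAAA (55.6%) and the NR4A monomer element AAAGGTCA (1.34%). Of these only the NFAT core matched, with 3 sites at one Nfatc2 start and 1 at the other, 1 in Nr4a2, and 1 in each of 2 Tox2 windows that overlap each other. A match describes the letters in these windows and does not show binding.

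The libraries differed in how much T cell RNA they held, which was least in IgG replicate 1. The 14 measured T cell identity genes summed to 2452 and 2583 RPKM with anti-SIGLEC15, and to 911 and 2719 RPKM with IgG. Cd8a, the gene for the CD8 alpha chain, measured 290.2 and 315 RPKM with anti-SIGLEC15, and 115 and 351 RPKM with IgG. Hepatocyte and hepatoma genes (12 of 12 measured) summed to 2874 and 1452 RPKM with anti-SIGLEC15, and to 6755 and 1376 RPKM with IgG. Neutrophil genes (8 of 8) summed to 215 and 369 RPKM with anti-SIGLEC15, and to 844 and 68.1 RPKM with IgG. Macrophage and monocyte genes (12 of 12) summed to 62.7 and 90.8 RPKM with anti-SIGLEC15, and to 109.7 and 45.5 RPKM with IgG. Red cell genes (5 of 5) summed to 113 and 19.9 RPKM with anti-SIGLEC15, and to 691 and 1929 RPKM with IgG, so here IgG replicate 2 was the highest. All 5 were lower in both anti-SIGLEC15 libraries, and the part of red cell RNA in the results was not tested. B cell, fibroblast and endothelial lists summed to under 4 RPKM in every library. None of these lists had a gene at 0 in all 4 libraries. In bulk RNA, fewer T cells and less RNA per T cell cannot be told apart. The total of counted reads, recovered from the values, lay between 14854802 and 16026197 per library.

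**Figure D1:**
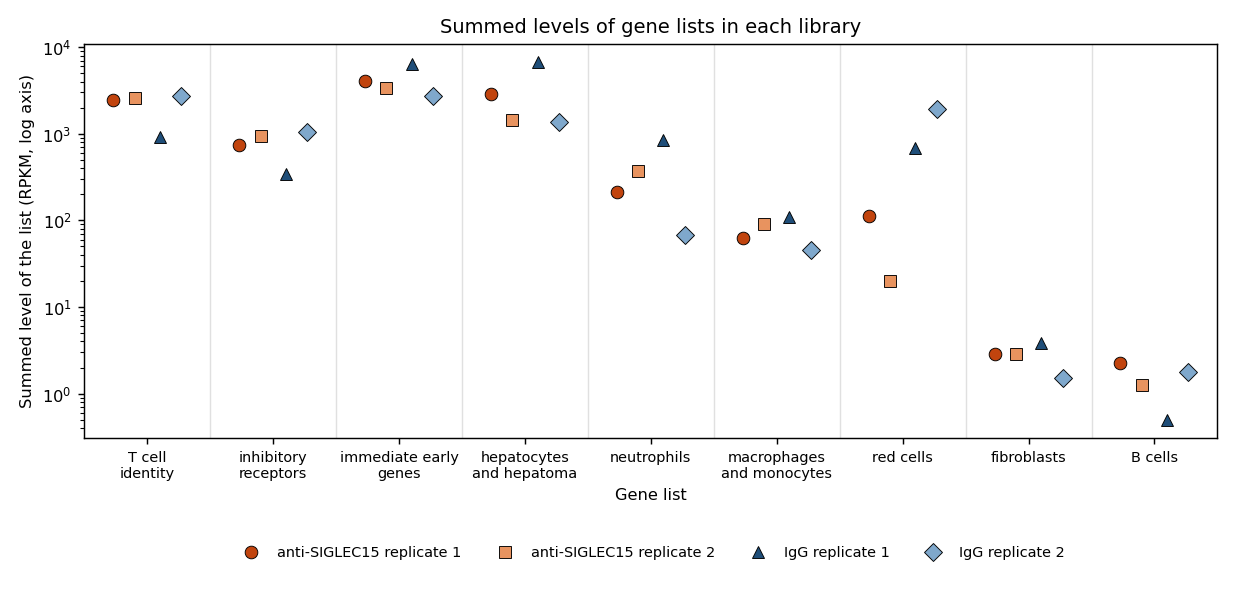
Summed RPKM (log axis) of 9 gene lists in each of the 4 libraries, 1 point per library. IgG replicate 1 was lowest for T cell identity (911 RPKM) and inhibitory receptors (342 RPKM) and highest for hepatocyte genes (6755 RPKM), neutrophil genes (844 RPKM) and immediate early genes (6472 RPKM), while red cell genes were highest in IgG replicate 2 (1929 RPKM).

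None of the 8 genes differed between the treatments beyond the spread between libraries. All 8 were lowest in IgG replicate 1, the library with the lowest sum of T cell genes, as were 5413 (43.4%) of the 12484 genes tested. On the log2(RPKM + 1) scale 7 of the 8 had a positive log2 fold change, anti-SIGLEC15 over IgG, and the median of the 8 was 0.49, beside 0.02 over all genes tested. limma called 0 of the 8 at a Benjamini-Hochberg adjusted p of 0.05, where 0% of all genes tested were called, and 146 genes had an unadjusted p under that value. In limma-voom on the recovered reads, 0 of 15061 genes passed, and 90 had an unadjusted p below 0.05. With 2 libraries against 2, an exact permutation test cannot go below p = 0.33. The anti-SIGLEC15 libraries lay above both IgG libraries for 1 of the 8, Nfatc2, and below both for 0. Over all genes tested, the groups did not overlap for 12.1% in the higher direction and 6.02% in the lower.

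**Figure D2:**
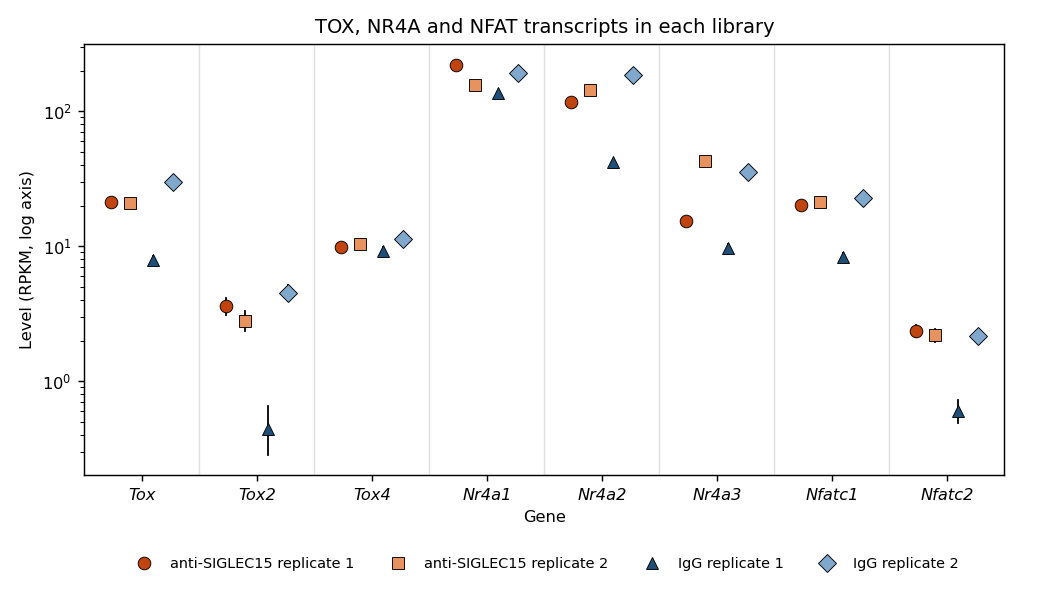
RPKM (log axis) of each of the 8 genes in each library, with vertical lines for 95% counting intervals, most of which are smaller than the symbols. The triangle of IgG replicate 1 is the lowest point for every gene, by a wide margin for Tox2 (0.44 RPKM) and a narrow one for Tox4 (9.27 RPKM).

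Tox (ENSMUSG00000041272, minus strand of chromosome 4, 6686353 to 6991557 in GRCm38), the factor most closely tied to T cell exhaustion, measured 21.2 and 20.8 RPKM with anti-SIGLEC15, against 7.97 and 30.1 RPKM with IgG. The 2 anti-SIGLEC15 libraries fell between the 2 IgG libraries. The means were 21.02 ± 0.331 RPKM with anti-SIGLEC15 and 19.05 ± 15.7 RPKM with IgG (SD, n = 2 each). The log2 fold change was 0.40 (SE 0.62, 95% interval -1.21 to 2.00, limma adjusted p = 1). An antisense gene, Gm11802, overlaps exons of Tox and measured 0.764 to 3.16 RPKM, and the sources used here do not say whether counting used strand.

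Tox2 (ENSMUSG00000074607, plus strand of chromosome 2, 163203125 to 163324170), the closest relative of Tox in this set, was scarce. It measured 3.60 and 2.79 RPKM with anti-SIGLEC15, against 0.440 and 4.53 RPKM with IgG. These values rest on 192 and 141 reads with anti-SIGLEC15 and on 24 and 239 reads with IgG. The 95% counting interval of IgG replicate 1 ran from 0.282 to 0.655 RPKM, below those of the other libraries, and covers counting error only. Tox2 was 16.9% and 13.4% of Tox with anti-SIGLEC15, against 5.52% and 15.0% with IgG, so it was low in IgG replicate 1 even beside Tox. Its log2 fold change was 0.56 (SE 0.68, adjusted p = 1).

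Tox4 (ENSMUSG00000016831, plus strand of chromosome 14, 52279146 to 52296401) encodes a TOX relative that most tissues express and that works in a phosphatase complex on chromatin. It was the steadiest of the 8, with 9.79 and 10.3 RPKM with anti-SIGLEC15 and 9.27 and 11.4 RPKM with IgG. Its highest library was 1.23 times its lowest, beside a median of 1.75 times over all genes tested. For Tox4 the log2 fold change was -0.03 (SE 0.27, 95% interval -0.71 to 0.65, adjusted p = 1). Exons of Mettl3 and Rab2b on the opposite strand overlap Tox4. Mettl3 measured 1.89 to 4.12 RPKM over the 4 libraries and Rab2b 0.214 to 0.418 RPKM.

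Nr4a1 (ENSMUSG00000023034, plus strand of chromosome 15, 101254269 to 101274795), a rapid read-out of T cell receptor signals, was the most abundant of the 8 in every library. It measured 221 and 156 RPKM with anti-SIGLEC15, against 136 and 191 RPKM with IgG. The groups overlapped, and the means were 189 ± 46.1 RPKM with anti-SIGLEC15 and 164 ± 38.7 RPKM with IgG (SD, n = 2 each). In limma the log2 fold change was 0.20 (SE 0.31, 95% interval -0.58 to 0.99, adjusted p = 1).

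Nr4a2 (ENSMUSG00000026826, minus strand of chromosome 2, 57106830 to 57124003), another orphan receptor of the family, ranked next in every library. It measured 118 and 144 RPKM with anti-SIGLEC15, against 41.9 and 185 RPKM with IgG. As for Tox, both anti-SIGLEC15 libraries lay between the IgG libraries. Its log2 fold change was 0.55 (SE 0.72, 95% interval -1.30 to 2.41, adjusted p = 1).

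Nr4a3 (ENSMUSG00000028341, plus strand of chromosome 4, 48045153 to 48086447), the last of the family, split both treatments. It measured 15.5 and 43.0 RPKM with anti-SIGLEC15, against 9.68 and 35.4 RPKM with IgG. It was the only gene of the 8 whose anti-SIGLEC15 libraries differed by more than 2-fold from each other. Its log2 fold change was 0.45 (SE 0.76, 95% interval -1.52 to 2.41, adjusted p = 1).

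The make-up of the NR4A transcripts differed between libraries whatever the scaling, since shares within a library do not depend on it. The 3 genes summed to 354 and 343 RPKM with anti-SIGLEC15, against 188 and 411 RPKM with IgG. Nr4a1 made up 62.5% and 45.6% of that sum with anti-SIGLEC15, against 72.6% and 46.5% with IgG. Nr4a2 made up 33.2% and 41.9% with anti-SIGLEC15, against 22.3% and 44.9% with IgG. Nr4a3 made up 4.36% and 12.5% with anti-SIGLEC15, against 5.15% and 8.61% with IgG. The first replicate of each treatment was thus richer in Nr4a1 and the second richer in Nr4a2 and Nr4a3. Those first replicates were also the libraries with the larger hepatocyte sums and the larger sums of immediate early genes within their treatment. Neutrophil sums were larger in the first replicate of IgG only. The part of these in the shares was not tested.

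**Figure D3:**
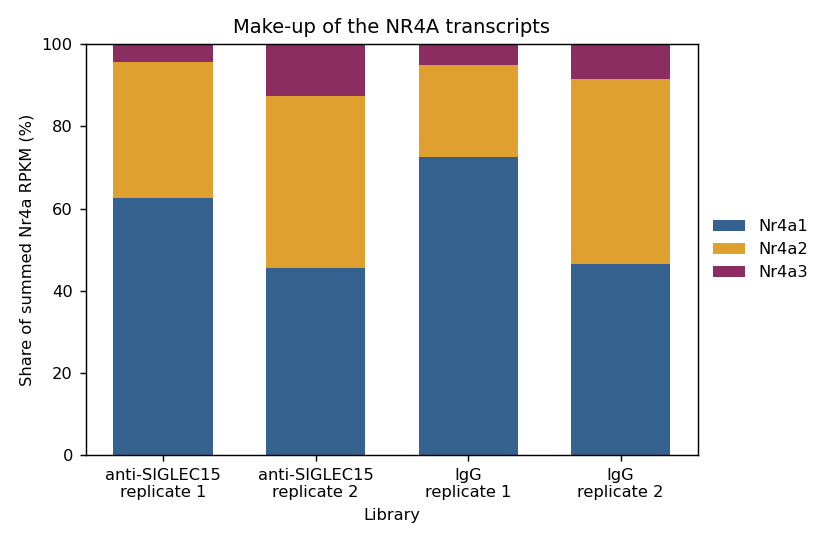
Stacked bars give the share of summed NR4A RPKM (%) taken by Nr4a1, Nr4a2 and Nr4a3 in each library. Nr4a1 took 62.5% and 72.6% in replicate 1 of anti-SIGLEC15 and IgG, and 45.6% and 46.5% in replicate 2.

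Nfatc1 (ENSMUSG00000033016, minus strand of chromosome 18, 80606205 to 80713071), an NFAT gene that T cell receptor signals induce, measured 20.4 and 21.2 RPKM with anti-SIGLEC15, against 8.36 and 22.8 RPKM with IgG. Of these, IgG replicate 1 alone was far from the rest. The log2 fold change was 0.54 (SE 0.49, 95% interval -0.73 to 1.82, adjusted p = 1). Nfatc2 (ENSMUSG00000027544, minus strand of chromosome 2, 168476410 to 168601657), the NFAT protein that resting T cells hold, measured 2.34 and 2.19 RPKM with anti-SIGLEC15, against 0.602 and 2.15 RPKM with IgG. Although its groups did not overlap, the gap between anti-SIGLEC15 replicate 2 and IgG replicate 2 was within counting error, with 95% counting intervals of 1.96 to 2.43 RPKM and 1.93 to 2.38 RPKM. The log2 fold change of Nfatc2 was 0.54 (SE 0.42, 95% interval -0.51 to 1.59, adjusted p = 1). Nfatc1 made up 89.7% and 90.6% of the summed RPKM of this pair with anti-SIGLEC15, against 93.3% and 91.4% with IgG.

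The order of the levels was partly shared by the libraries. Nr4a1 and Nr4a2 ranked first and second in all 4, although Nr4a2 reached 92.0% of Nr4a1 in anti-SIGLEC15 replicate 2 and 96.7% in IgG replicate 2. Nr4a3, Tox and Nfatc1 exchanged places in the middle, so no order of these 3 held in all 4 libraries, and differences between them were not tested. Tox was 104% and 98.1% of Nfatc1 with anti-SIGLEC15, against 95.3% and 132% with IgG. Tox4 ranked sixth except in IgG replicate 1, where it ranked above Tox and Nfatc1 and stood at 116% of Tox. Tox2 and Nfatc2 were the lowest pair in every library.

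Set against Cd8a, the genes differed in how steady their ratio was over the 4 libraries. Nfatc1 was 7.02% and 6.72% of Cd8a RPKM with anti-SIGLEC15, against 7.28% and 6.48% with IgG, so that the highest ratio was 1.12 times the lowest. Only 39 of 11995 genes (0.325%) had a ratio to Cd8a that varied less, and the median over these genes was 3.15 times. Other T cell genes were also steady: over the 14 T cell identity genes the median was 1.32 times, 2 of them (Zap70 at 1.06 times and Cd3d at 1.10 times) varied less than Nfatc1, 6 varied less than Tox and 9 varied less than Nr4a2. Tox was 7.32% and 6.59% of Cd8a with anti-SIGLEC15, against 6.94% and 8.57% with IgG, a range of 1.30 times that 2.28% of genes undercut. Nr4a2 was 40.5% and 45.5% of Cd8a with anti-SIGLEC15, against 36.4% and 52.6% with IgG, a range of 1.44 times that 4.59% of genes undercut. IgG replicate 1 was no longer apart for these 3 genes.

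Tox4 and Nr4a1 were less steady than these 3 genes, with ranges of 2.49 and 2.40 times that 31.5% and 28.8% of genes undercut. Both ranges were below the median of 3.15 times over all genes. Tox4 was 3.37% and 3.27% of Cd8a with anti-SIGLEC15, against 8.07% and 3.24% with IgG, so IgG replicate 1 alone was high. Nr4a1 was 76.3% and 49.5% of Cd8a with anti-SIGLEC15, against 119% and 54.4% with IgG, again highest in IgG replicate 1 and next highest in anti-SIGLEC15 replicate 1. These 2 libraries were also those with the larger hepatocyte sums, and the part of non-T cells in the Nr4a1 and Tox4 ratios was not tested. Nr4a3 was 5.32% and 13.6% of Cd8a with anti-SIGLEC15, against 8.43% and 10.1% with IgG, with its extremes both in the anti-SIGLEC15 libraries. The range of 2.56 times was undercut by 33.7% of genes. Tox2 was 1.24% and 0.885% of Cd8a with anti-SIGLEC15, against 0.383% and 1.29% with IgG. The range of Tox2, 3.36 times, was the widest of the 8 and was undercut by 55.1% of genes. Nfatc2 was 0.807% and 0.694% of Cd8a with anti-SIGLEC15, against 0.524% and 0.610% with IgG. Its range of 1.54 times, which 6.63% of genes undercut, was close to that of Nr4a2. It was the 1 gene of the 8 whose groups did not overlap on this scale, where 3.75% of genes lay higher and 5.79% lower without overlap. The nearest libraries, at 0.694% and 0.610%, rest on 344 and 352 reads of Nfatc2, whose counting intervals in RPKM overlapped.

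**Figure D4:**
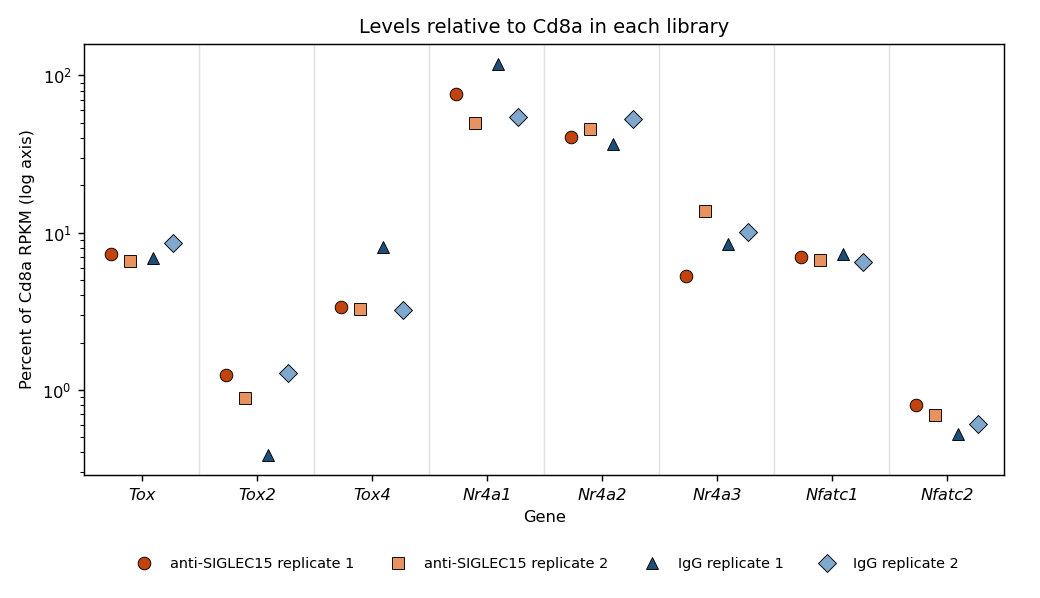
Level of each of the 8 genes as a percentage of Cd8a RPKM (log axis), 1 point per library. The points of Nfatc1 (6.48% to 7.28%), Tox (6.59% to 8.57%), Nr4a2 (36.4% to 52.6%) and Nfatc2 (0.524% to 0.807%) lie close together. IgG replicate 1 is high for Tox4 (8.07%) and Nr4a1 (119%) and low for Tox2 (0.383%).

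In a fit with the libraries scaled to equal Cd8a, 0 of the 8 genes were called, and 3 of 12154 genes (0.0247%) were, all of them haemoglobin genes. The median log2 fold change over all genes was -0.49 on this scale, because scaling to Cd8a multiplied IgG replicate 1 by 2.15 and the others by 0.702 to 0.850, and the median of the 8 was -0.06. The log2 fold changes were 0.00 for Nfatc1 (SE 0.88), -0.03 for Nr4a2 (SE 0.92), -0.10 for Nr4a3 (SE 0.90), -0.14 for Tox (SE 0.88), -0.39 for Nr4a1 (SE 0.94) and -0.58 for Tox4 (SE 0.88). Tox2 and Nfatc2 had 0.33 (SE 0.74) and 0.25 (SE 0.64). Adjusted p ran from 0.94 to 1 in limma. The interval for Tox, -1.92 to 1.63, leaves room for a change of more than 2-fold in either direction, so equal expression was not shown. The sign turned with the scaling for Tox, Nr4a1, Nr4a2 and Nr4a3, while Nfatc1 went to 0.00, and each of these values was smaller than its SE.

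On the deposited scale, the fold changes depended on which library was left out. Without IgG replicate 1 the log2 fold change was -0.50 for Tox, -0.51 for Nr4a2, -0.44 for Nr4a3 and -0.41 for Tox2, with 0 of the 8 called, beside 1.13% of genes tested. Without IgG replicate 2 it was 1.30 for Tox, 1.61 for Nr4a2, 1.33 for Nr4a3, 1.54 for Tox2, 1.22 for Nfatc1 and 1.03 for Nfatc2, and limma called these 6 (adjusted p from 1.2e-06 to 0.0385). The spread in that fit comes from the anti-SIGLEC15 pair alone, and it called 2251 of 12091 genes (18.6%). Nr4a3 had 1.16 without anti-SIGLEC15 replicate 1 and -0.26 without anti-SIGLEC15 replicate 2. In the same fits Nr4a1 had -0.05 and 0.45, as wide a range as without either IgG library (-0.04 and 0.44). Tox had 0.38 and 0.41, and Nfatc1 0.57 and 0.52. Relative to Cd8a, leaving out IgG replicate 2 gave 0.00 for Tox, 0.23 for Nr4a2 and -0.08 for Nfatc1, none of them called, and -1.19 for Tox4 and -0.95 for Nr4a1, both called (adjusted p = 0.0272 and 0.0278). That fit called 57.7% of 11999 genes, with a median log2 fold change of -1.14 over all of them, so Tox4 and Nr4a1 lay near the value of all genes.

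**Figure D5:**
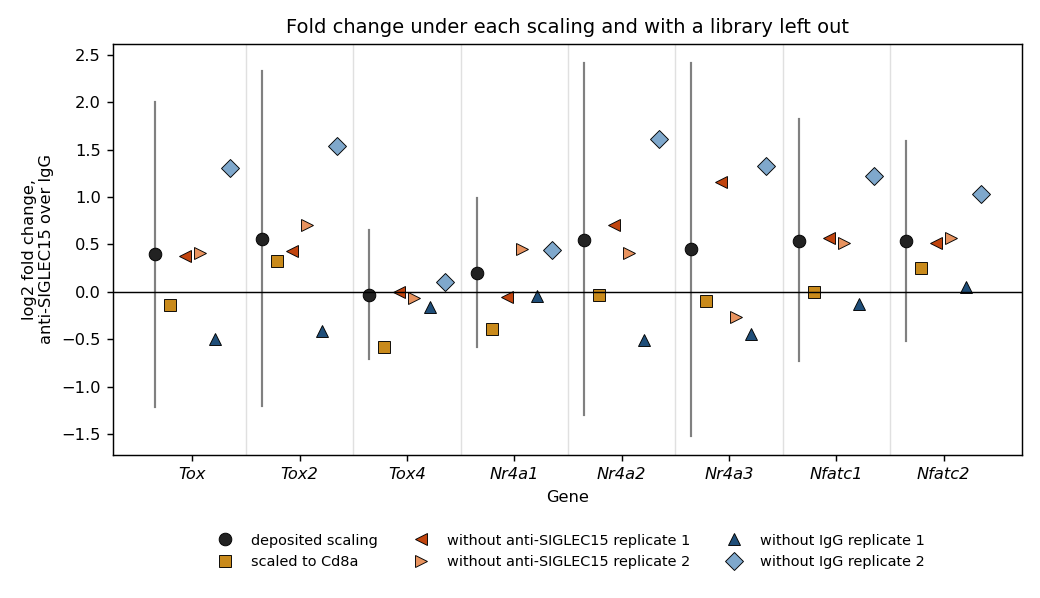
log2 fold change, anti-SIGLEC15 over IgG, of each of the 8 genes on the deposited scale (circles, with 95% limma intervals), scaled to Cd8a (squares), without anti-SIGLEC15 replicate 1 or 2 (triangles pointing left or right), without IgG replicate 1 (upright triangles) and without IgG replicate 2 (diamonds). Every interval crosses 0, the diamonds lie above the upright triangles for all 8 genes, by the least for Tox4 (0.10 and -0.16), and the sideways triangles lie far apart for Nr4a3 (1.16 and -0.26).

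Of 18 genes listed for NFAT and calcineurin signalling, inhibitors of it and Nfat5 among them, 16 were tested and 0 were called (0% of all genes tested). The treatments did not overlap for 4 of them, 2 higher and 2 lower with anti-SIGLEC15, beside 12.1% and 6.02% of all genes tested. Their median log2 fold change was 0.10 (-0.34 scaled to Cd8a), beside 0.02 (-0.49) over all genes. Nfatc3, a further calcium-dependent NFAT gene, measured 13.8 and 12.8 RPKM with anti-SIGLEC15, against 6.49 and 13.8 RPKM with IgG. Ppp3cc, a catalytic subunit of calcineurin, measured 28.3 and 27.4 RPKM with anti-SIGLEC15, against 9.97 and 27.1 RPKM with IgG. Its regulatory subunit gene Ppp3r1 measured 20.6 and 19.7 RPKM with anti-SIGLEC15, against 20.7 and 24.1 RPKM with IgG. Nfat5, which responds to osmotic stress and not to calcineurin, measured 7.15 and 6.51 RPKM with anti-SIGLEC15, against 7.70 and 8.24 RPKM with IgG. Rcan1, a calcineurin inhibitor that NFAT induces, was scarce, with 1.65 and 1.13 RPKM with anti-SIGLEC15 and 1.40 and 1.15 RPKM with IgG. Tox3 was listed at 0 in all 4 libraries and Nfatc4 stayed at or below 0.15 RPKM.

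Inhibitory receptor genes, the best known targets of TOX and NR4A proteins, were lowest in IgG replicate 1 for all 11 measured, beside 43.4% of all genes tested. None was called (0% of all genes tested) and none lay apart between the treatments. Their median log2 fold change was 0.43, and it was -0.24 with T cell identity scaling and -0.16 with Cd8a scaling. The medians over all genes tested were 0.02, -0.56 and -0.49, so that of this list lay above them each time. Pdcd1, which encodes PD-1, was 59.2% and 78.1% of Cd8a with anti-SIGLEC15, against 80.9% and 74.0% with IgG. Tigit was 81.1% and 95.7% of Cd8a with anti-SIGLEC15, against 80.6% and 88.8% with IgG. Lag3 was 46.7% and 55.6% with anti-SIGLEC15, against 55.6% and 58.3% with IgG. Havcr2, which encodes TIM-3, was 19.4% and 25.1% of Cd8a with anti-SIGLEC15, against 29.7% and 26.2% with IgG. Ctla4 was 25.8% and 28.2% of Cd8a with anti-SIGLEC15, against 28.7% and 29.5% with IgG, so that for both genes the anti-SIGLEC15 libraries were the lower. Over the list, 1 of the 11 was higher and 3 were lower relative to Cd8a without overlap, beside 3.75% and 5.79% of all genes, and neither Havcr2 nor Ctla4 was called.

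Partner and opposing factors did not share 1 profile over the libraries, and 8 of the 14 tested were lowest and 4 highest in IgG replicate 1. Over all genes tested, 43.4% were lowest in that library, and the share highest there was not counted. Batf, an AP-1 family factor that works with IRF4, measured 52.2 and 60.3 RPKM with anti-SIGLEC15, against 19.8 and 60.5 RPKM with IgG. Irf4, induced in proportion to T cell receptor signals, measured 13.03 and 15.5 RPKM with anti-SIGLEC15, against 3.42 and 12.9 RPKM with IgG. It was the 1 gene of the 14 tested in this list that lay higher in both anti-SIGLEC15 libraries, with a log2 fold change of 0.96 (SE 0.59, adjusted p = 1), and 0 lay lower (12.1% and 6.02% of all genes). Tcf7, a factor of stem-like T cells that TOX-high cells lose as they become terminal, measured 27.1 and 9.95 RPKM with anti-SIGLEC15, against 25.4 and 9.44 RPKM with IgG. Tcf7 was thus high in the replicates where Nr4a3 was low. Over the list the median log2 fold change was 0.27 (-0.26 scaled to Cd8a), beside 0.02 (-0.49) over all genes. Relative to Cd8a, 3 of the 14 were higher and 1 was lower without overlap, beside 3.75% and 5.79% of all genes.

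Jun, Fos and Egr1 are immediate early genes, as the NR4A genes are. Jun, an AP-1 partner of NFAT, measured 240 and 188 RPKM with anti-SIGLEC15, against 350.4 and 128 RPKM with IgG. Fos measured 384 and 158 RPKM with anti-SIGLEC15, against 825 and 156 RPKM with IgG. Egr1 measured 90.8 and 72.3 RPKM with anti-SIGLEC15, against 221 and 47.1 RPKM with IgG. All 3 were highest in IgG replicate 1, where Nr4a1, Nr4a2 and Nr4a3 were lowest and where the hepatocyte and neutrophil sums were highest. The part of those cells in these levels was not tested. Relative to Cd8a, Jun was 82.7% and 59.5% with anti-SIGLEC15, against 305% and 36.4% with IgG, and on that scale Nr4a1 too was highest in IgG replicate 1.

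Of 18 immediate early genes tested, 12 were highest in IgG replicate 1, a share that was not counted over all genes. In that library 3 were lowest, beside 43.4% of all genes tested, and 0 were called (0% of all genes). The median log2 fold change was -0.07 (-0.66 scaled to Cd8a), beside 0.02 (-0.49) over all genes. Cd69 and Dusp2 lay higher in both anti-SIGLEC15 libraries, 2 of 18 beside 12.1% of all genes. Cd69, which encodes a surface protein of activated lymphocytes, measured 46.4 and 33.0 RPKM with anti-SIGLEC15, against 8.36 and 27.8 RPKM with IgG. Dusp2, a phosphatase gene, measured 282 and 298 RPKM with anti-SIGLEC15, against 107 and 258 RPKM with IgG. Neither passed the test (adjusted p = 1 for both in limma). Of the EGR genes that NFAT induces, Egr3 measured 1.06 and 0.764 RPKM with anti-SIGLEC15 and 0.255 and 1.61 RPKM with IgG, and Egr2 stayed below 0.12 RPKM in every library, under the filter.

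Genes whose profile over the 4 libraries was closest to each factor were found by the root mean square difference of centred log2(RPKM + 1), among protein-coding genes averaging at least 5 RPKM. With 4 libraries, of which 1 stands apart, this is a description. For Tox these were Pip4k2a, Spn, which encodes the leukocyte surface protein CD43, and Esyt1, at differences of 0.0691, 0.0694 and 0.0775. For Nfatc1 they were Sept6, Fmnl1 and Rpl34, at 0.0119 to 0.0186, and for Nfatc2 Pik3r1, Arrdc1 and Tap2, at 0.00994 to 0.0214. For Nr4a2 they were Ctsc, the cathepsin gene whose product activates granzymes, Klrd1 and Prkch, at 0.0803 to 0.129.

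Nr4a3 had no neighbour as close: its nearest were the cytokine receptor gene Il21r (0.144), Tnfrsf1b (0.204) and Adgrg1 (0.212). Il21r measured 40.1 and 95.1 RPKM with anti-SIGLEC15, against 26.6 and 72.6 RPKM with IgG, with both second replicates high, as for Nr4a3. The genes nearest to Nr4a1 were Eml3, Nde1 and Tmem14c (0.0136 to 0.0259), and those nearest to Tox4 were Actn1, Mvb12a and Vma21 (0.0117 to 0.0144). For Tox2 they were Il18r1, Mfng and Lcn4 (0.062 to 0.0667). In RPKM the range of Tox2 was wider, from 0.440 to 4.53, than that of Il18r1, from 8.07 to 34.7.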

How the data were processed

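Poly(A) RNA was selected with oligo-coated beads and, per the labels' protocols, run on a DNBSEQ-G50 sequencer. The deposited values are read as RPKM computed by the authors: a value times the length of that gene's exons (GENCODE M21) was a whole multiple of 1 step per library, within 0.02 of a read, for 98.92% to 98.97% of genes under 1000 reads. Per the submitters' processing notes, the builds are GRCm38 and mm10. Aligner, counting tool, strand and annotation were not given in the sources used here.

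limma (3.58.1, R 4.3.3; trend, robust) was fitted on log2(RPKM + 1) for 12484 genes with at least 1 RPKM in 2 libraries, with Benjamini-Hochberg adjustment over all of them. A fold change on this scale understates that of low genes. A further fit scaled libraries to equal Cd8a and left Cd8a out. Reads were also simulated for this comparison (12429 genes tested on average, 200 changed, dispersion 0.05). The share recovered was 93.7% for a 4-fold change and 100% for a 16-fold change. Of the calls, 15.9% were false, above the nominal 5%. Apart from the changed genes, every simulated library had the same mean profile, without the differences in cell make-up seen here. These shares therefore do not give the power in these data, where Hbb-bs, at a log2 fold change of -4.64, was not called on the deposited scale. Replicates are not stated to be separate beyond the mixing of samples, so p-values measure the spread between these pools. Members, lists and tests were chosen with earlier results of these data known. The genes named were the 8, Cd8a, a set list of related genes, and members of 4 pathway lists averaging at least 5 RPKM whose treatments did not overlap; for each of the 8, the 3 nearest profiles were named. Genes outside that rule (Tox3, Nfatc4, Zap70, Cd3d, Cd101, Hbb-bs) were named after their values were seen. Alternatives were other scalings, filters and pseudocounts, limma-voom, the replicate number as a block, and leaving out each library.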

Additional observations from a re-analysis of the deposited data

How the results depend on the processing

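With no filter, a filter at 5 RPKM (which removes Tox2 and Nfatc2), a pseudocount of 0.1, limma-voom, median-of-ratios or upper-quartile scaling and the replicate block, all tested genes of the 8 kept their direction and none was called. With T cell identity scaling the log2 fold change turned to -0.23 for Tox, -0.48 for Nr4a1, -0.12 for Nr4a2, -0.19 for Nr4a3 and -0.09 for Nfatc1, and with Cd8a scaling to -0.14, -0.39, -0.03, -0.10 and 0.00 for the same genes. The median over all genes was then -0.56 and -0.49, so these scalings moved most genes the same way. Over the fits that left out 1 library, it ran from -0.50 to 1.30 for Tox, -0.41 to 1.54 for Tox2, -0.16 to 0.10 for Tox4, -0.05 to 0.45 for Nr4a1, -0.51 to 1.61 for Nr4a2, -0.44 to 1.33 for Nr4a3, -0.13 to 1.22 for Nfatc1 and 0.05 to 1.03 for Nfatc2. Relative to Cd8a it ran from -0.29 to 0.00 for Tox, -0.22 to 0.89 for Tox2, -1.19 to 0.03 for Tox4, -0.95 to 0.18 for Nr4a1, -0.29 to 0.23 for Nr4a2, -0.75 to 0.54 for Nr4a3, -0.08 to 0.08 for Nfatc1 and 0.18 to 0.32 for Nfatc2. Set against Cd8a and Cd8b1 together, Nr4a2 had 0.07 and Nfatc1 0.09. The cause was not tested.

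Genes called over the whole table numbered 0 on the deposited scale, 3 with Cd8a scaling and 0 to 2251 with a library left out (135 without IgG replicate 1). Relative to Cd8a the count was 3, against 0 with Cd8a and Cd8b1, 0 with the T cell identity list, 8 with a pseudocount of 0.1, 11 with the replicate block and 0 to 6926 with a library left out. The block called 0 genes on the deposited scale. Deviations of same-numbered libraries correlated at 0.33, but the labels do not say that the numbers pair the samples. Under T cell identity and Cd8a scaling, the median log2 fold change was -0.42 and -0.34 for NFAT and calcineurin genes, -0.33 and -0.26 for partner factors, -0.76 and -0.66 for immediate early genes, and -0.24 and -0.16 for inhibitory receptors. Over all genes it was -0.56 and -0.49. With a library left out the first 3 of these list medians ran from -0.12 to 0.34, -0.02 to 0.69 and -0.68 to 0.40, and that of the inhibitory receptors from -0.32 to 1.21.

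Depth limits the least abundant of the 8: Tox2 and Nfatc2 had 24 and 102 reads in IgG replicate 1, and for Nfatc2 the counting intervals of the second replicates overlapped.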
